A study of Arabidopsis thaliana with 6 samples.

Results

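Around the 5 centromeres of Arabidopsis thaliana, 280 reproducible WDR5A regions were found, 4.19% of the 6684 in the genome. A reproducible region is a group of chromatin immunoprecipitation (ChIP-seq) summits, each within 250 bp of the next, that holds a summit from every one of the 3 immunoprecipitated libraries, and it is placed at its median summit. The 280 pericentromeric regions are those within 2.5 Mb of a stated centre, at 15.1, 3.6, 13.7, 3.9 and 11.7 Mb on chromosomes 1 to 5 (TAIR10). They were thus selected on the called summits and on position, so where summits were called, and in how many lists, is described without a test. Tests are given of strength alone. Chromosomes 1 to 5 held 62, 52, 43, 71 and 52 of them. The other 6404 regions, on the chromosome arms, serve as the comparison.

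The libraries came from whole seedlings 9 days old, grown under continuous white light and described as WDR5A-HA_pkl, that is, HA-tagged WDR5A in a pkl background. The antibody was against HA. WDR5A is the WD40 scaffold protein shared by plant COMPASS-like histone methyltransferases, which act on lysine 4 of histone H3. PKL (PICKLE) belongs to the CHD3 family of ATP-dependent nucleosome remodellers. Descriptions and genotype labels give WDR5A-HA_pkl, 3 IP and 3 input libraries, whereas their titles say PKL_WT for the IP and PKL_jaw-5D for the input libraries. The descriptions were followed, and bait and genotype rest on them. The series' design text calls the 3 replicates biological. No input list, second genotype or untagged control was analysed here, and what drives the tagged WDR5A is not given in the sources used here.

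In Arabidopsis the centromere is flanked by pericentromeric heterochromatin, which is rich in transposons and silenced sequence, poor in genes, and marked by DNA methylation and methylation of histone H3 at lysine 9. Methylation of H3 at lysine 4 is typical of the starts of transcribed genes, and genes that are active in seedlings also occur as islands within the heterochromatin. Where WDR5A is called there, and on which genes, is what the following values describe.

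The stated windows had the make-up of pericentromeres. They covered 25 Mb, 21.0% of the 119.1 Mb spanned by annotated genes, and held 2143 protein-coding genes, 7.81% of the total. They held 3455 of the annotated pseudogenes, 71.3% of the total, a class that in the gene table used takes in transposon-derived loci. Protein-coding genes stood at 85.7 per Mb in the windows and 268.8 per Mb on the arms, and pseudogenes at 138.2 per Mb in the windows and 14.7 per Mb on the arms.

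WDR5A regions were sparser around the centromeres, also relative to the number of genes there. There were 11.2 regions per Mb in the windows and 68.0 per Mb on the arms, a ratio of 0.165, beside a ratio of 0.319 for protein-coding genes. Per 100 protein-coding genes there were 13.1 regions in the windows and 25.3 on the arms. A region lay in the gene or within 500 bp of it for 239 of the 2143 pericentromeric protein-coding genes (11.2%) and for 6042 of the 25301 on the arms (23.9%). Over all protein-coding genes the share was 22.9%. On chromosomes 1 to 5 the pericentromeric share was 13.4%, 8.38%, 9.79%, 13.6% and 10.5%, and on the arms of the same chromosomes 24.0%, 22.8%, 24.2%, 24.6% and 23.7%. All 5 window shares were thus below all 5 arm shares. Counting regions in gene bodies only, the shares were 5.88% in the windows and 11.5% on the arms. Keeping only the stronger summits of each list, from its median upwards, left 142 pericentromeric regions, and the shares were then 5.74% and 11.4%.

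The same held in each list taken by itself. In replicates 1, 2 and 3, 17.5%, 17.1% and 17.7% of pericentromeric protein-coding genes had a summit in the gene or within 500 bp, against 35.7%, 34.6% and 35.8% of genes on the arms. The difference averaged −17.9 ± 0.356 percentage points (SD, n = 3 lists), and was negative in every list. The windows took 477 of 10864, 453 of 10408 and 489 of 10826 summits in replicates 1 to 3, a mean of 4.42% ± 0.0861 (SD, n = 3).

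Regions thinned steadily towards the centre. In successive 0.5 Mb steps away from the centre, over all 5 chromosomes, the counts were 6, 25, 52, 81 and 116. That is 1.2, 5, 10.4, 16.2 and 23.2 regions per Mb, while pseudogenes stood at 161, 176, 144.8, 121.2 and 88.0 per Mb. The share of protein-coding genes with a region was 2.65% in the innermost step, then 7.92%, 11.1%, 12.4% and 13.1%. The innermost share depended on an insertion of mitochondrial DNA on chromosome 2, which lies next to the stated centre and held 101 of the 189 protein-coding genes of that step and no region. Without those genes it was 5 of 88 (5.68%), still the lowest of the steps, and the share over all windows was 11.7%. Even the outermost step therefore lay below the 23.9% of the arms. Strength followed no such order: the median of the regions' mean strengths was 4.92, 9.58, 12.3, 8.73 and 8.94 from the innermost step outwards. Strength here is the value the authors deposited for each summit, read as −log10 of the q-value. It grows with sequencing depth as well as with enrichment, and depth is unknown.

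**Figure D1:**
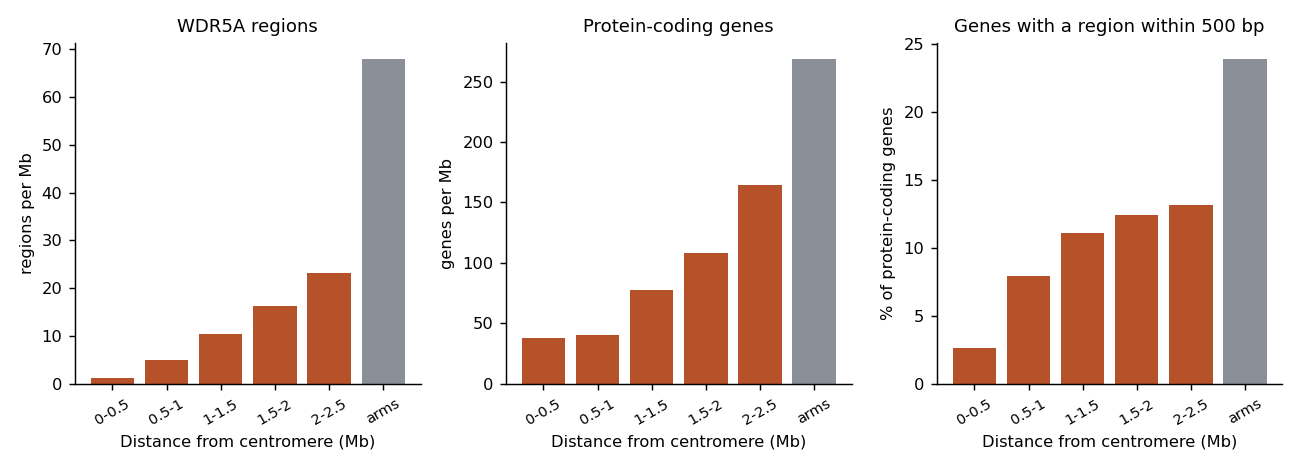
Regions per Mb (left), protein-coding genes per Mb (middle) and percent of protein-coding genes with a region in the gene or within 500 bp (right), in 0.5 Mb steps from the stated centre (orange, 5 chromosomes summed) and on the arms (grey). All 3 bars are lowest next to the centre, where 2.65% of genes carried a region (5.68% without the genes of a mitochondrial DNA insertion), and highest on the arms, where 23.9% did.

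The centre of each chromosome lay in a stretch with no reproducible region, bounded by the nearest region on each side. Any position lies in some such stretch, and these were not ranked against the gaps between regions elsewhere. These stretches ran for 1345 kb on chromosome 1, 623.9 kb on chromosome 2, 1638 kb on chromosome 3, 1481 kb on chromosome 4 and 1220 kb on chromosome 5. Together they held 245 protein-coding genes and 992 pseudogenes. Of these protein-coding genes, 109 lay in the stretch on chromosome 2, which takes in the mitochondrial insertion with its 101 protein-coding genes. They were not wholly free of summits: 33 summits in 24 linked groups were called in them, 9 of the groups in 2 of the 3 lists, and the strongest had a strength of 12.7. A stretch without regions is one where none was called in all lists. How reads from repeated sequence were treated is not given in the sources used here, and its part in the low counts was not tested.

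The regions nearest to the centres were weaker than the median member, at a mean strength of 9.01, on all chromosomes but chromosome 1. On chromosome 2 the nearest lay only 0.0709 Mb from the centre, at position 3670891, inside the lncRNA gene AT2G09795, which overlaps the pseudogene AT2G09800. Its strength was 4.17, 3.23 and 1.53 in replicates 1, 2 and 3. On chromosome 4 it lay 0.301 Mb away in PCN (POPCORN, a WD40-repeat protein needed for embryo development), at position 4201278, with 4.28, 5.95 and 3.49. A further PCN region, at position 4205190, had 11.1, 7.72 and 6.94, the strongest within 0.5 Mb of any centre. On chromosome 5 the nearest was inside AT5G32460, 0.382 Mb away, with a mean strength of 5.31 ± 2.66 (SD, n = 3). On chromosome 3 it was inside ARP6, 0.396 Mb away, at 4.36 ± 0.640. ARP6 encodes an actin-related subunit of the SWR1 remodeller, which deposits the histone variant H2A.Z. On chromosome 1 it was inside AT1G41880, 0.551 Mb away, at 11.6 ± 0.535, so that chromosome had no region within 0.5 Mb of its centre.

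**Figure D2:**
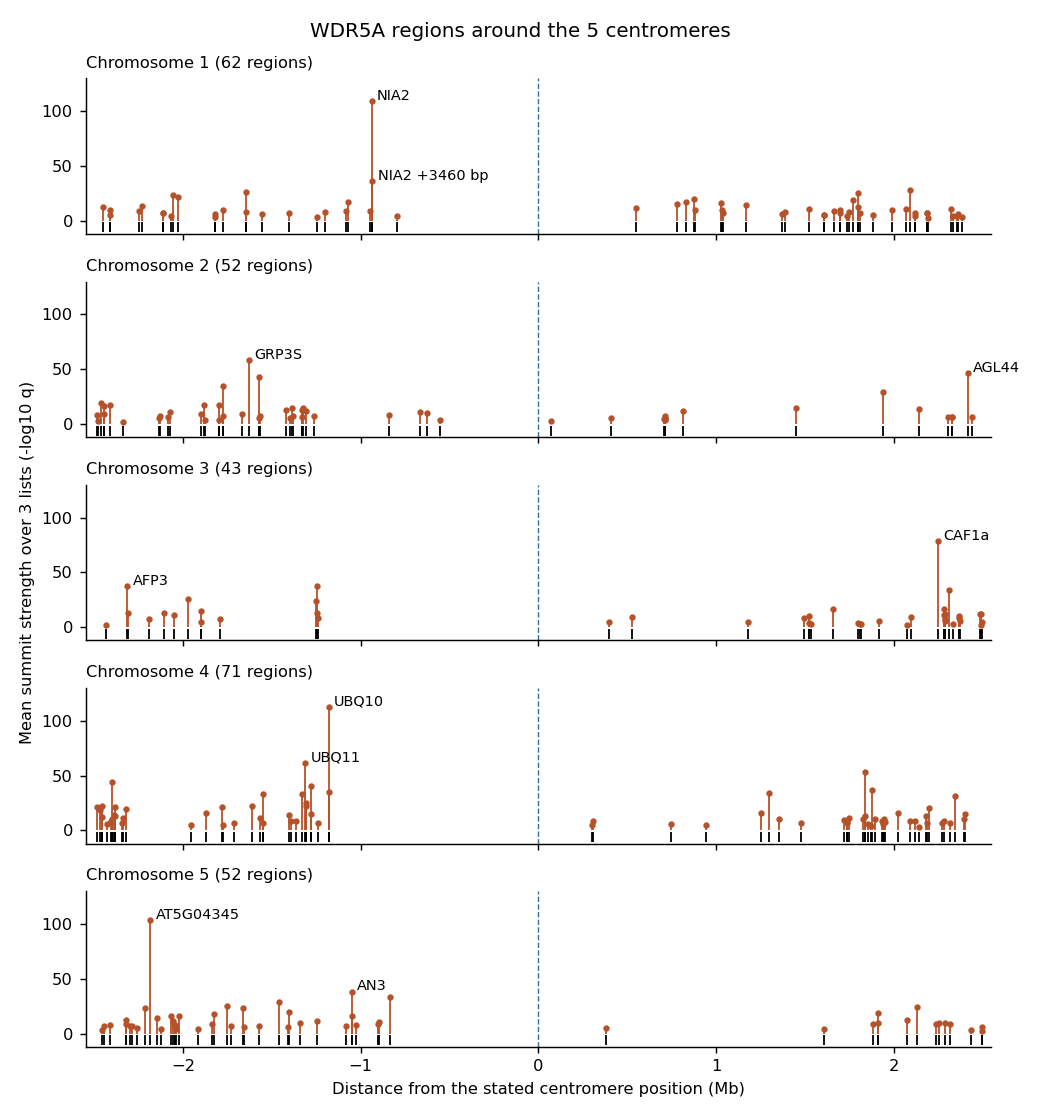
Distance from the stated centre (horizontal, Mb) and mean strength over the 3 lists (vertical, −log10 q) of each of the 280 regions, one panel per chromosome, with a tick under each region and the strongest carriers named. The ticks crowd at the window edges and leave a gap at every centre, and tall bars stand among low ones at all distances beyond about 0.8 Mb.

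Weak regions did not prevail in the windows as a whole. The median strength of the 280 regions was 10.6, 8.24 and 8.26 in replicates 1, 2 and 3, against 9.79, 8.62 and 9.13 for the arm regions. The difference was positive in replicate 1 and negative in the other lists, with a mean of −0.132 ± 0.883 (SD, n = 3), smaller than its spread (exact 2-sided paired permutation test, p = 0.75, where 3 lists allow no p below 0.25, so that 0.05 cannot be reached). Without replicate 3 it was 0.26, and in windows of 1.5 Mb it was 0.46. At the upper end the pericentromeric values were higher: their 90th percentile was 31.1, 26.2 and 26.5, against 26.6, 23.0 and 24.1 on the arms. That difference, 3.36 ± 1.11 (SD, n = 3), was positive in all 3 lists (exact 2-sided paired permutation test, p = 0.25, the smallest possible). The 90th percentile was not among the planned comparisons and was not repeated under the alternative settings. Of the strongest 67 regions of the genome, 1% of all, 6 were pericentromeric (8.96%), and of the strongest 334 regions 23 were (6.89%), beside the 4.19% of all regions. Of the strongest 668, however, 33 were (4.94%), and the weakest 10% of all regions held 34 members, so both ends of the range held about equally many. Among the members, 24 had a mean strength of at least 30, 127 of at least 10 and 44 under 5, and the lowest was 1.89, inside AT2G03980.

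The ubiquitin genes UBQ10 and UBQ11 lay at the top of the list. Both encode polyubiquitin, tandem ubiquitin units that are cleaved into single ubiquitin proteins, and they are the only genes of the ubiquitin list in the windows. Both carried regions (2 of 2), against 6 of 12 ubiquitin genes on the arms. The strongest region of all had strengths of 130.1, 97.3 and 111.5 in replicates 1, 2 and 3 (113 ± 16.5, SD, n = 3), inside UBQ10 at position 2720032 of chromosome 4. A second UBQ10 region, at 2718394, had 47.5, 25.7 and 31.2. UBQ11 carried a region at 2588157 with 70.2, 49.9 and 65.6 and another at 2589153 with 16.7, 33.9 and 24.6. Every list thus placed the main region of each gene above its second one. The repeat units of polyubiquitin genes are alike in sequence, so how reads were divided between these genes is uncertain. The main UBQ10 region also lay within 500 bp of AGD13, an ARF-GAP gene, and was counted for it as well.

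Genes of nitrogen use were also among the carriers, a grouping made after their values were seen. NIA2, the major nitrate reductase gene, had strengths of 129.8, 97.6 and 101.2 in replicates 1, 2 and 3 at position 14160809 of chromosome 1 (109.6 ± 17.6, SD, n = 3). It lies 0.939 Mb from the centre, nearer than any other region of comparable strength. A region 3460 bp from NIA2, in intergenic sequence at 14165398, had 38.3, 38.4 and 31.4. AGL44 (ANR1), a MADS-box factor of the root response to nitrate, had 62.4, 35.8 and 42.2 at a region 184 bp outside the gene. GS2, the chloroplast glutamine synthetase, had 23.2, 26.9 and 23.1 at a region 121 bp outside it. Of the nitrate list, NIA2 was the one gene in the windows, and it carried a region, while on the arms 15 of 48 did.

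The region beside TPR3, a TOPLESS-related transcriptional corepressor gene, was the third strongest. It had 101.5, 91.1 and 117.8 in replicates 1, 2 and 3 (103 ± 13.5, SD, n = 3) at position 9515714 of chromosome 5, the order of the lists differing from that at UBQ10 and NIA2. The summit lay 149 bp outside TPR3 and inside AT5G04345, a gene annotated as lncRNA. Which of these it belongs to cannot be told from the summit. TPR3 was the only TOPLESS-list gene in the windows, beside 6 of 8 with a region on the arms. That list was drawn by patterns of symbol or synonym and held 9 genes, more than the names it searched for. It can thus take in unrelated genes, and 6 of 8 is not a share for the TOPLESS family. CAF1a, a catalytic deadenylase subunit that shortens mRNA tails, followed with 88.2, 73.7 and 73.9 at position 15952500 of chromosome 3. These regions exceeded every other pericentromeric region but those at UBQ10 and NIA2 in their mean over the lists.

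**Figure D3:**
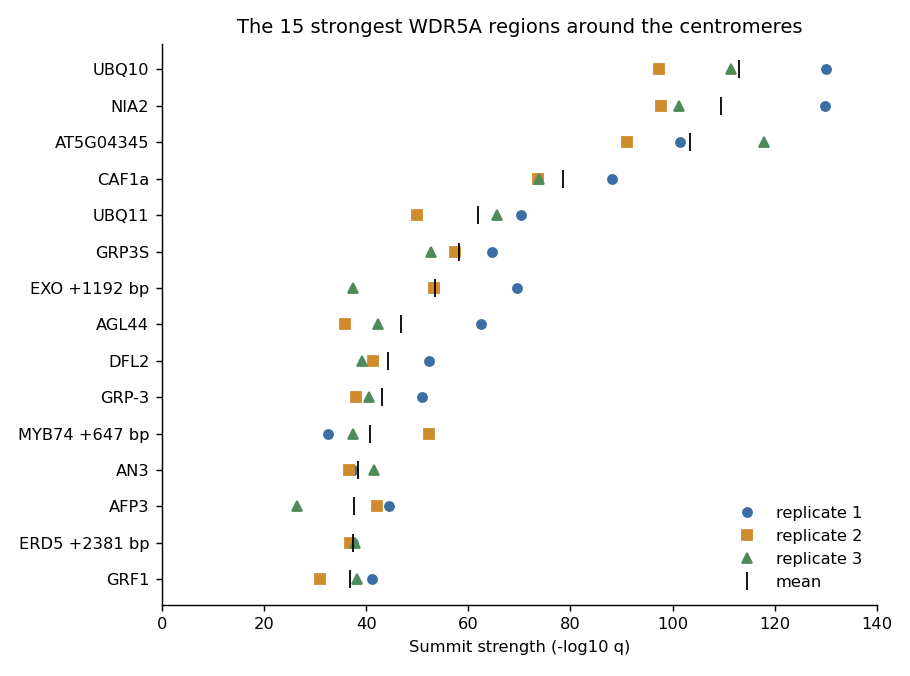
Strength in each of the 3 lists (points, −log10 q) and their mean (bars) for the 15 regions with the highest mean, named by the carrying gene or, for intergenic regions, by the nearest protein-coding gene and the distance to it. UBQ10, NIA2 and AT5G04345 beside TPR3 stand apart above 90 in every list.

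Of the remaining 9 of the top 15, 6 lay in or next to protein-coding genes of varied roles. The glycine-rich protein genes GRP3S and GRP-3 had 64.6, 57.4 and 52.6, and 50.9, 38.0 and 40.5, in replicates 1, 2 and 3. They are relatives on chromosome 2, at positions 1967968 and 2027010, and GRP-3 encodes a secreted protein that binds the cell wall-associated kinase WAK1. DFL2, a GH3-family gene that acts in light-dependent hypocotyl growth, had 52.2, 41.3 and 39.1 at 1500085 of chromosome 4. AN3 (GIF1), a coactivator of growth-regulating factors that promotes leaf cell proliferation, had 37.3, 36.6 and 41.4, and a second region with 19.1, 11.3 and 17.0. AFP3, an ABI5-binding protein gene of abscisic acid signalling, had 44.5, 42.2 and 26.4 at a region 124 bp away. GRF1, which in this table is a 14-3-3 protein gene, had 41.1, 30.9 and 38.2, and this summit also lay 2 bp from TL29, a thylakoid lumen protein gene.

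The other 3 of the top 15 were intergenic. The strongest, with 69.5, 53.2 and 37.4 in replicates 1, 2 and 3, lay at position 5739027 of chromosome 4, 1192 bp from EXO (EXORDIUM), a gene of brassinosteroid-promoted growth. EXO itself carried a weaker region, with 12.3, 14.0 and 14.5. The region 647 bp from MYB74, a MYB factor of salt and drought responses, was highest in replicate 2, with 32.6, 52.3 and 37.4. The region 2381 bp from ERD5, the proline dehydrogenase gene, had 37.4, 36.9 and 37.7, the closest match between lists of all members by coefficient of variation (1.19%), and 25.2, 26.7 and 19.9 were found inside ERD5. Of the 15 regions, 11 were highest in replicate 1, 1 in replicate 2 and 3 in replicate 3. Across all 280, 144 were highest in replicate 1 (51.4%), and 9 of the 15 were in the top 15 of every list.

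Over the 280 regions, strengths ranked alike in the lists, with Spearman's rho of 0.771 between replicates 1 and 2, 0.773 between 1 and 3 and 0.805 between 2 and 3. These are correlations across regions, which are not independent replicates, and a lower limit on strength applies to every list. The least alike was the region of EMB2761, with 19.0, 3.87 and 4.34. A region inside NIT1 had 1.49, 13.0 and 7.91. Every one of the 280 regions held exactly 1 summit per list, the outermost 3 to 332 bp apart, with a median of 52.5 bp in the windows and 57 bp on the arms.

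**Figure D4:**
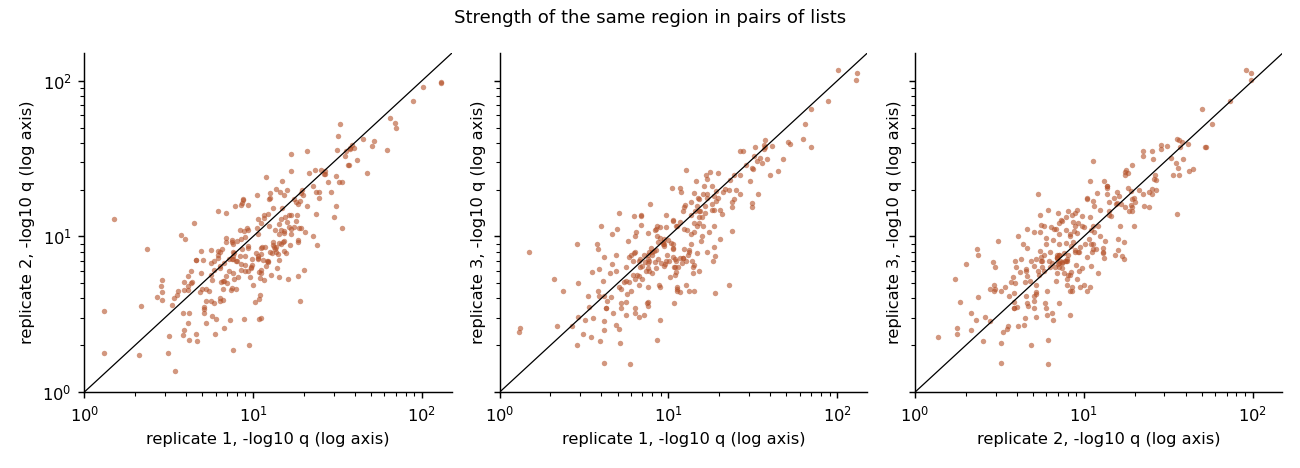
Strength of each of the 280 regions in pairs of lists (−log10 q, log axes), with the line of equality. Points follow the line over the whole range and scatter most at low strengths, and those at the top, such as UBQ10, lie below the line in the first panel, where replicate 1 exceeds replicate 2.

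Agreement between lists was also compared between the windows and the arms. The share of summits with a partner in both other lists was 57.4%, 60.9% and 56.0% in the windows for replicates 1, 2 and 3, against 60.4%, 63.2% and 60.7% on the arms. The difference, −3.31 ± 1.22 percentage points (SD, n = 3), was negative in every list and is given without a test, since the rule for members used the same links. The sign did not hold once weak summits were dropped: the difference was 0.31 points among the stronger summits of each list and 0.11 among those with a strength of at least 5. With linking at 100 bp the difference was −0.432 ± 0.772 points (SD, n = 3), smaller than its spread. Counted as linked groups, 280 of the 700 in the windows were in all lists (40.0%), 159 in 2 lists (22.7%) and 261 in 1 list (37.3%). On the arms the shares were 43.6%, 21.6% and 34.9%.

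Of the photosynthesis list, 3 of 5 genes in the windows carried a region, beside 34 of 49 on the arms. LHCB2.1 and LHCB2.2, which encode nearly alike light-harvesting proteins of photosystem II, had main regions with 36.9, 28.7 and 38.5 and with 16.2, 13.7 and 21.1 in replicates 1, 2 and 3. Each had a weaker second region, at 7.02 ± 1.04 near LHCB2.1 and 3.96 ± 1.07 near LHCB2.2 (SD, n = 3). Their sequences are alike, so the division of reads between them is uncertain. NPQ4, the PsbS protein of photoprotective energy dissipation, had 20.9, 15.6 and 19.3, and PSBX and PSBQ-2 carried no region.

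Further carriers that act in the chloroplast, in photorespiration or in light sensing were picked out after their values were seen. PETC, the Rieske protein of the cytochrome b6f complex, had 16.8, 26.2 and 23.3 at a summit 128 bp outside PETC and 14 bp from the tRNA gene AT4G03285. The chloroplast ATP synthase genes ATPD and ATPC1 had means of 20.3 ± 3.69 and 6.74 ± 3.96 (SD, n = 3). GAPB, a Calvin cycle dehydrogenase subunit, had 14.9, 15.1 and 17.6. AGT, the photorespiratory aminotransferase of peroxisomes, had 32.1, 22.5 and 33.0. CRY1, the blue-light photoreceptor cryptochrome 1, had 10.6, 7.28 and 12.8 at a summit 90 bp outside the gene.

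In the remaining gene lists few pericentromeric genes were available. For these and the lists above, the shares over all protein-coding genes were 11.2% in the windows and 23.9% on the arms. Of the ribosomal list, 2 of 4 genes carried a region in the windows and 23 of 53 on the arms, with RP1 at 14.5 ± 2.62 and RPS18C at 6.90 ± 1.08 (SD, n = 3). The RPS18C summit lay inside the neighbouring gene AT4G09810. Of the WRKY list 1 of 3 carried one, ZAP1 (WRKY1) at 17.7 ± 4.38, beside 16 of 68 on the arms, and of the MYB list 1 of 7, MYB6 at 8.83 ± 4.39, beside 25 of 131. Of the auxin list 1 of 9 carried one, DFL2, beside 54 of 144 on the arms. None was carried by the 3 AP2/ERF genes, against 30 of 52 on the arms, by the 11 cytochrome P450 genes, against 44 of 229, by the 2 heat shock genes, against 15 of 45, or by the 1 histone gene, against 11 of 28. The windows held no gene of the bHLH list or of the actin and tubulin list, as those were defined by patterns of symbol or synonym. The bHLH pattern missed TT8, with the synonym BHLH42, and FBH1 and FBH2, whose synonyms name them flowering bHLH genes. Each of these lies in the windows, but they were noticed because they were among the carriers. Missed bHLH genes without a region were not sought, so no share of bHLH genes can be given. List counts this small describe the listed genes and are read no further. The patterns take in some unrelated genes and miss some related ones.

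The large classes of place took similar shares of the regions near the centromeres and on the arms. The classes of small RNA genes and of pseudogenes held only 1 and 3 members, too few to compare shares. Inside protein-coding genes lay 135 members (48.2%, against 47.7% of arm regions), and within 500 bp of one lay 75 (26.8%, against 28.1%). The edge of a protein-coding gene was within 250 bp of 142 members (50.7%, against 52.0%). Other intergenic sequence held 58 (20.7%, against 19.2%). Inside non-coding RNA genes lay 8 (2.86%, against 3.04%), and inside a tRNA, snoRNA, snRNA, rRNA or miRNA gene 1 (0.357%, against 1.67%, or 107 arm regions), the tRNA gene AT2G03790, at 8.94 ± 2.31 (SD, n = 3). Gene starts and ends could not be separated, nor exons, introns or UTRs assigned, because the gene table gives no strand or exon.

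Pseudogenes, although they outnumbered protein-coding genes in the windows, almost never held a region. There were 3 members classed as inside a pseudogene, 1.07% of the members, against 0.359% of the arm regions. They were AT2G05300 with 5.07, 7.03 and 14.1 in replicates 1, 2 and 3, AT1G43997 with 5.63, 8.23 and 3.13, and SADHU1-1 with 7.53, 4.68 and 3.56. SADHU1-1 belongs to the SADHU family of non-autonomous retroelements, and it lay 0.406 Mb from the centre of chromosome 2. All 3 were below the median strength of the members. Counting AT2G09800 too, 4 of 3455 pericentromeric pseudogenes held a region (0.116%), against 23 of 1388 on the arms (1.66%) and 0.558% over all pseudogenes. A pseudogene was within 500 bp of 11 members (3.93%) and of 61 arm regions (0.953%). The class takes in transposon-derived loci, and the part that the treatment of reads from repeated sequence had in these shares was not tested.

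Non-coding RNA genes showed the same ordering. Of 560 such genes in the windows 11 held a region (1.96%), against 289 of 3728 on the arms (7.75%), and the share over all was 7.0%. Some regions lie in overlapping non-coding genes or also in a protein-coding gene, so this count exceeds that of the class. After AT5G04345 beside TPR3, the strongest was inside AT4G04915, annotated as misc_RNA, with 35.0, 32.7 and 31.7 in replicates 1, 2 and 3, 563 bp from ATPC1. A region inside the lncRNA gene AT2G05075, 456 bp from the cycloartenol synthase gene CAS1, had 8.69, 17.2 and 7.21. AT3G05945 and AT4G04865, both lncRNA genes with no protein-coding gene within 5 kb, had means of 7.37 ± 2.88 and 6.89 ± 0.959 (SD, n = 3).

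Regions remote from protein-coding genes made up a larger share of the regions in the windows, where genes also stand farther apart. Of the protein-coding genes themselves, 15.4% in the windows and 0.7% on the arms were more than 5 kb from the next. How much sequence lies this far from genes was not measured, so the shares below are not set against it. More than 2 kb from any protein-coding gene lay 33 members (11.8%), against 5.22% of arm regions, and more than 5 kb lay 13 members (4.64%), against 22 arm regions (0.344%). The 13 had a median strength of 7.37 and the 22 one of 14.0. The strongest of the 13 had 26.5, 25.2 and 35.6 in replicates 1, 2 and 3, at position 10240477 of chromosome 5. It lay 26879 bp from the nearest protein-coding gene, AT5G28237, and 860 bp from a pseudogene. Another, at position 15880501 of chromosome 1, had 18.0, 12.5 and 14.8, at 10780 bp from the nearest protein-coding gene and 0.781 Mb from the centre.

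Which pericentromeric genes carried a region went with their length and naming. Of genes up to 1 kb long, 2.84% carried one in the windows and 10.7% on the arms. For 1 to 2 kb these shares were 9.97% and 21.7%, for 2 to 3 kb 14.99% and 27.2%, for 3 to 5 kb 20.6% and 29.6%, and over 5 kb 26.1% and 33.3%. The share was lower in the windows in every length class, and the ratio of the shares was 0.264 for the shortest genes and 0.784 for the longest. Genes up to 1 kb were 31.2% of the pericentromeric genes and 14.7% of those on the arms. A longer gene also offers a longer target for a summit. Carrying genes had a median length of 2543 bp and the others 1476 bp in the windows, while on the arms these medians were 2417 bp and 2006 bp.

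Genes with a symbol in the table stood nearer to the arms than genes known by locus name alone. Of the genes with a symbol, 21.5% carried a region in the windows and 29.5% on the arms, and of those with a locus name only, 7.59% and 20.3%. The most isolated genes differed most. Of genes more than 5 kb from the next protein-coding gene, 22 of 330 (6.67%) carried a region in the windows and 54 of 177 (30.5%) on the arms. With another protein-coding gene within 0.5 kb, 15.9% did in the windows and 26.0% on the arms. At 0.5 to 2 kb the shares were 8.85% and 18.3%, and at 2 to 5 kb 8.71% and 21.9%. The isolated genes thus had the lowest share of the 4 spacing classes around the centromeres and the highest on the arms.

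**Figure D5:**
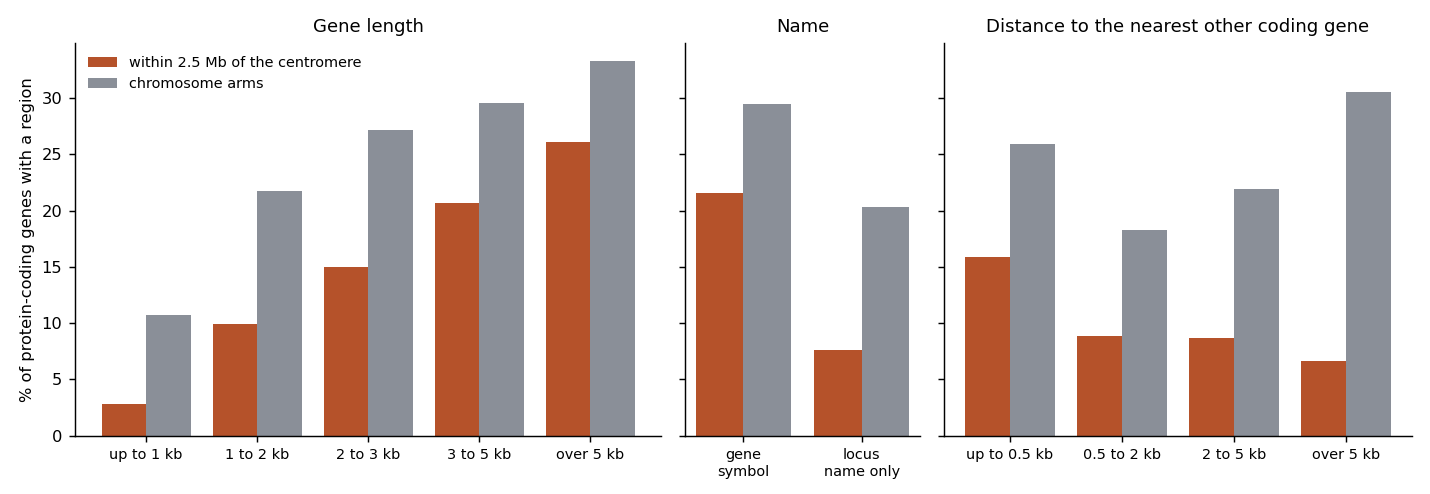
Percent of protein-coding genes with a region in the gene or within 500 bp, in the windows (orange) and on the arms (grey), by gene length, by whether the table gives a symbol, and by distance to the nearest other protein-coding gene. The orange bar is lower in every class, and the gap is widest for genes more than 5 kb from a neighbour, at 6.67% in the windows and 30.5% on the arms.

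Regions also stood farther apart around the centromeres, with some local groups. The median distance to the next region was 9603 bp in the windows and 3868 bp on the arms, and 54 members (19.3%) had another within 2 kb, against 27.2% of arm regions. Of the carrying genes 27 had more than 1 region (11.3%), against 14.5% on the arms. There were 3 genes with 3 regions. NIT1, a nitrilase gene, had mean strengths of 16.4, 7.48 and 6.11 at its regions, and NIT2 next to it had 11.6, though these nitrilases are alike in sequence. AT2G05920 had 13.2, 6.52 and 14.9 at its regions, and AT2G10940, only about 0.71 Mb from the centre of chromosome 2, had 4.41, 4.55 and 3.72. The largest chain of regions no more than 20 kb apart held 7, spread over 65.8 kb of chromosome 4 at and between CRY1 and AGP10, with EXO and the 14-3-3 gene GRF1 among them.

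Blocks of particular origin inside the windows differed in whether they held regions. The heterochromatic knob on the short arm of chromosome 4, taken as 1.6 to 2.3 Mb, held 6 regions and 54 protein-coding genes, of which 4 carried one (7.41%, against 11.2% in all windows). That is 8.57 regions per Mb, against 11.2 per Mb in all windows. The strongest there was in CRK40, a cysteine-rich receptor-like kinase gene near the edge of the block, with 21.5, 25.5 and 20.1 in replicates 1, 2 and 3. The insertion of mitochondrial DNA on chromosome 2, taken as 3.2 to 3.6 Mb, held no region and 1 linked group, with 101 annotated protein-coding genes. The bounds of both blocks are approximate and come from general knowledge of the genome, not from the files. Whether reads could be assigned there, given near-identical mitochondrial sequence, was not tested.

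The sides of a centre differed on some chromosomes. On chromosome 3 the share of protein-coding genes with a region was 3.68% to the left of the centre and 14.1% to the right, and on chromosome 5 it was 12.5% and 6.62%. On chromosome 4 it was 13.1% and 14.0%. The stated centres are approximate, so part of such a contrast can come from their placement, which was not tested by side.

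The last region inside on chromosome 4 lay 103 bp from XTH9, a wall xyloglucan enzyme gene, with a mean strength of 21.1 ± 8.77, and the first outside was at AT4G03140 with 4.45 ± 0.618 (SD, n = 3). On the right of chromosome 3 the last inside was at AT3G44630 with 4.40 ± 2.91, and the first outside at ADT4, an arogenate dehydratase gene, with 24.5 ± 4.39. On the right of chromosome 4 these were AT4G10070 with 15.1 ± 2.54 and LHCB5, a light-harvesting gene, with 23.2 ± 6.62. The other last regions inside were at EMB2756 (12.2), AT1G47570 (3.35), PIP (6.14), UGD2 (2.36), MSS1 (3.64), CCB3 (6.06) and, on the left of chromosome 2, in intergenic sequence (8.23). The first outside were at STOP1 (4.51), AT1G47860 (3.70), AT2G03490 (6.51), AT2G14460 (12.6), SDR4 (6.17), AL4 (4.53) and AT5G36230 (6.64), each value a mean strength over the lists.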

How the data were processed

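The tools named per the submitters' processing notes are deepTools, fastp, MACS2 2.2.5 and Bowtie2 2.3.3, and the build is TAIR10. The sources used here do not give thresholds, read filters or the use of the inputs. The authors deposited 3 IP lists of 1 bp summits with a strength, read as −log10 of the q-value because the lowest value (1.301) equals −log10 of 0.05. Depth is unknown. Lists carry their own replicate's peak names and were taken as called per sample.

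Summits within 250 bp were linked (Python 3.11.15, numpy 2.4.6, pandas 2.3.3) and groups with all 3 lists kept. Genes came from an NCBI RefSeq table of assembly TAIR10.1, with 27444 protein-coding genes. None of its coordinates is printed. With no shift, 142 of the 280 members had a protein-coding gene edge within 250 bp, and 34 to 57 did after shifts of 500 to 5000 bp. The table has no strand, exons or sequence, so promoter and motif comparisons planned for these regions were not run.

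Strengths in windows and arms were compared by exact sign-flip permutation, paired within lists; gene shares and agreement between lists are descriptions. Linking, the search for partners, the count of regions per gene and the sign flips were tried on simulated lists with widely spaced summits. Other steps, such as classes of place and carriers, were not tried in this way. Genes are named by fixed rules: the carriers of the 15 strongest members, the members closest to each centre, those in pseudogenes and small RNA genes, the strongest in non-coding RNA genes and intergenic sequence, the window edges, list genes and genes with at least 3 regions. Others were named after their values were seen. The members, lists and rules were all chosen with earlier results of these data known.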

Additional observations from a re-analysis of the deposited data

How the results depend on the processing

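Pericentromeric genes carried a region less often than arm genes under every alternative tried. The pericentromeric share, 11.2% as reported, was 9.94% with linking at 100 bp (arms 20.4%), 12.2% at 500 bp (25.1%), 8.22% in windows of 1.5 Mb (23.3%), 14.4% in windows of 3.5 Mb (24.5%), 5.74% with only the stronger summits of each list, from its median upwards (11.4%), 7.37% with strength of at least 5 (15.4%), 10.6% with centres at the 3 Mb with the fewest protein-coding genes (24.0%), 5.88% in gene bodies only (11.5%), 12.4% with 1000 bp flanks (28.1%), 9.01% with each region given to 1 gene (17.9%), 11.7% without the genes of the mitochondrial insertion, an alternative chosen after seeing the data (23.9%), and 12.4% to 13.4% without each list in turn. The number of regions was 83 in windows of 1.5 Mb, 701 in windows of 3.5 Mb and 142 with the summits from each list's median upwards, and 318 to 337 without each list in turn. The difference in median strength changed sign in windows of 1.5 Mb (0.46) and without replicate 3 (0.26), with −0.70 to 0.26 over the lists left out. The difference in summits with partners in both other lists changed sign with the summits from each list's median upwards (0.31) and with strength of at least 5 (0.11), and was −4.15 to −0.864 without each list in turn. With linking at 100 bp this difference was −0.432 ± 0.772 (SD, n = 3), smaller than its spread. The causes were not tested. No paired analysis was possible because replicate numbers had no second group to pair with among the files used; windows and arms were paired only within a list. Depth is unknown, so a gene with no region is one where none was called in all lists.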
